A study of Mus musculus with 20 samples.

Results

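Glutathione transferases are described here through 10 genes of 4 classes: Gsta1, Gsta2, Gsta3 and Gsta4 (alpha), Gstm1, Gstm2 and Gstm3 (mu), Gstp1 (pi), and Gstt1 and Gstt2 (theta). They were chosen by symbol, and all 10 were present among the 15608 genes of the liver counts and the 20738 genes of the epididymal white adipose tissue (eWAT) counts. Messenger RNA was measured in 20 libraries, 5 of WT and 5 of IR 4A mice for each tissue, 4 groups in all. All mice were males of 2 months. IR 4A is a form of the insulin receptor whose MAD2-binding motif was altered, and the study asks how receptor endocytosis that depends on MAD2 bears on metabolism. The labels do not say whether the libraries came from separate animals, so each p-value speaks only of the spread among libraries, which may be technical.

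Cytosolic glutathione transferases join the thiol of glutathione to electrophilic compounds, among them products of lipid peroxidation and activated drugs, so that the conjugates can be exported and processed to mercapturates. The liver holds much of this capacity. Transcription of many members responds to NRF2, which binds antioxidant response elements, and to xenobiotic receptors, and several members are expressed differently in male and female mouse liver. Alpha enzymes act on lipid hydroperoxides, with Gsta4 known for conjugating the aldehyde 4-hydroxynonenal. Mu enzymes act on epoxides, the pi enzyme is known for its abundance in male mouse liver, and theta enzymes act on small halogenated compounds.

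Several members are near copies of each other. The coding sequences of Gsta1 and Gsta2 were 97.6% identical, those of Gstm1 and Gstm3 89.5%, those of Gstm1 and Gstm2 85.9% and those of Gstm2 and Gstm3 84.7%. The 10 pairs within a class ran from 60.5% to 97.6%, and the 35 pairs between classes from 44.8% to 52.6%. Of the stretches of 31 bases in the transcripts of Gsta1, 92.9% also occurred in transcripts of other genes, against 60.7% for Gsta2, 38.5% for Gstp1, 37.7% for Gstm3, 28.8% for Gstm1 and 12.2% for Gstm2. Gsta3, Gstt1 and Gstt2 shared at most 3.66%, and Gsta4 shared 0 of 1236. The partner of Gstp1 was Gstp2. Estimated counts of Gsta1 and Gsta2, and to a lesser degree of Gstp1, Gstm1 and Gstm3, therefore depend on how reads common to the copies were divided.

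Sequence before the start of 8 members was found in RefSeq (GRCm38.p6), and 7 of them are shown because they carry a match to a searched motif or belong to members whose values the results turn on. Gstm1 has overlapping windows for 2 starts, and 1 is shown. Each is the 250 bases before the annotated start, 5′ to 3′ on the strand of the gene. Capitals mark matches to TGACNNNGC (antioxidant response element core), GCGTG (xenobiotic response element core) or TTCNNNGAA (STAT5 site), searched on both strands.
Gsta1, chr9:78230419-78230668, plus strand: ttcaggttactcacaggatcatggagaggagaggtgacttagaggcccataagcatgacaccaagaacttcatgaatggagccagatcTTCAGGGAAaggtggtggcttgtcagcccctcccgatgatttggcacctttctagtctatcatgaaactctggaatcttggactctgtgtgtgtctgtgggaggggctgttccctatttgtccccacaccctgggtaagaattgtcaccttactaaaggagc
Gsta2, chr9:78347146-78347395, minus strand: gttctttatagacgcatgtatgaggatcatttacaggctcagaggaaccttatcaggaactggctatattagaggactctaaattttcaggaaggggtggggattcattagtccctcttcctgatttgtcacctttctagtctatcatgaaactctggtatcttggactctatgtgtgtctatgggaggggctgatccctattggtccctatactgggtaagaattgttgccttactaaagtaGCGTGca
Gsta3, chr1:21240335-21240584, plus strand: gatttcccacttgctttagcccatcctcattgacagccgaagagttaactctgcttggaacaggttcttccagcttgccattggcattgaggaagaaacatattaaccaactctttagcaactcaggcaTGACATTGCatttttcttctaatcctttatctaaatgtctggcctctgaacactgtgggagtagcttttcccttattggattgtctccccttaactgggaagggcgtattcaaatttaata
Gstm1, chr3:108017974-108018223, minus strand: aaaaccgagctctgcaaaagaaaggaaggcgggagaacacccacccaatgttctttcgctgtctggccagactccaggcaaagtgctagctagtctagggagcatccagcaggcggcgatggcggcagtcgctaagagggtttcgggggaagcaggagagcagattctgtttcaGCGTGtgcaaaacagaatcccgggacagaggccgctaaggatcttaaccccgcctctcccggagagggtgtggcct
Gstm2, chr3:107986421-107986670, minus strand: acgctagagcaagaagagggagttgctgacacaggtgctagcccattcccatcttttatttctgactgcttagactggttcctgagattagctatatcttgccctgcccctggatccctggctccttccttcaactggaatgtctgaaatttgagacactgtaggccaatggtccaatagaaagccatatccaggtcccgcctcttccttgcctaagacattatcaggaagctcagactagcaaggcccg
Gstm3, chr3:107969175-107969424, minus strand: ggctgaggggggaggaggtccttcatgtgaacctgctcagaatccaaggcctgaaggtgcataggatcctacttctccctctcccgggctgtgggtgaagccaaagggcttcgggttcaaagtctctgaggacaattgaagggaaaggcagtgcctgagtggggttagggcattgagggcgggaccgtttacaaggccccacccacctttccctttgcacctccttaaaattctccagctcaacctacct
Gstp1, chr19:4037913-4038162, minus strand: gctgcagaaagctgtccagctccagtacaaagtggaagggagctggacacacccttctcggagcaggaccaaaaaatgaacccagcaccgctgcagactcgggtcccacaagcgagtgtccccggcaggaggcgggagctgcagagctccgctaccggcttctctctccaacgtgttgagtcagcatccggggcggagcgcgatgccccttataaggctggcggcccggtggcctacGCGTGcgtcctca
Within windows that also include 50 bases after the start, the antioxidant response element core was found in 1 of 8 members, Gsta3, against 12.4% of all 32851 promoters of the same length. GCGTG was found in 4 of 8 members (Gsta1, Gsta2, Gstm1 and Gstp1) against 32.4% of all promoters. The Gsta1 match lies across the start and so is not in capitals. TTCNNNGAA was found in 1 of 8, Gsta1, against 8.3%. The windows of Gstm2, Gstm3 and Gstt1 held none of these letters. Gsta4 and Gstt2 had no entry. The matches are descriptions of short windows and not of binding.

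Hepatocyte markers summed to 77800 to 91490 CPM (counts scaled to library size, with TMM factors set within a tissue) in liver, and adipocyte markers to 3072 to 33200 CPM in eWAT, so both tissues carried the markers of their label. Total counts were 17989420 to 24238359 per liver library and 13651874 to 21615358 per eWAT library. Liver WT 1 and WT 3 stood apart, with summed acute phase genes of 120300 and 68720 CPM against 15650 to 30920 CPM in the other 8 liver libraries. The eWAT libraries also carried epididymis RNA: 20 of 20 epididymis markers were in the counts, and they summed to 37240 to 52820 CPM in IR 4A and to 5545 to 43940 CPM in WT, above the adipocyte markers in every eWAT library but WT 4. Levels given for eWAT are therefore those of libraries with RNA of both tissues. Testis and sperm markers were highest in eWAT WT 1, WT 2, IR 4A 3 and IR 4A 4 (2096 to 6800 CPM, against 144.6 to 763.8 CPM in the other 6). In bulk tissue, fewer cells of a type and less RNA per cell cannot be told apart.

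In WT liver the pi gene was the most abundant member. Per kilobase of transcript, which allows levels to be compared between genes, Gstp1 stood at 1681 ± 339 CPM per kilobase (SD, n = 5), ahead of Gstm1 at 703 ± 199 and Gsta3 at 352 ± 147. The Gstp1 libraries did not overlap those of Gstm1, whereas those of Gstm1 and Gsta3 overlapped. Gstt1 followed at 71.2 ± 16.7, apart from the next gene on either side in this order. It did overlap Gstm3, whose highest library (57.6) lay above the lowest of Gstt1 (48.7). Gstm2 (35.9 ± 7.04), Gstm3 (34.8 ± 16.2), Gsta4 (26.9 ± 10.3) and Gstt2 (15.4 ± 4.02) each overlapped the next in this order. After Gstt2 came Gsta2 (11.8 ± 7.26), which did not overlap Gsta1. Gsta1 was lowest at 1.31 ± 1.51 and held 0 counts in WT 4 and WT 5. Summed by class, pi made up 57.8% ± 4.19 of the 10 members in WT liver, mu 26.3% ± 3.32, alpha 12.97% ± 3.35 and theta 2.95% ± 0.168.

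In IR 4A liver the pi share was 42.1% ± 2.08, the mu share 36.5% ± 4.05, the alpha share 18.4% ± 1.99 and the theta share 3.02% ± 0.437 (SD, n = 5, no test). Gstp1 (1257 ± 97.7 CPM per kilobase) and Gstm1 (995 ± 203) now overlapped. In WT eWAT the order differed, with Gstm2 leading (394 ± 45.7), Gstm1 overlapping it (308 ± 66.8), and then Gstp1 (114 ± 27.6). Mu made up 74.6% ± 2.87 of the members in WT eWAT and 77.3% ± 2.95 in IR 4A eWAT. Pi made up 11.96% ± 1.67 and 12.3% ± 0.690, alpha 9.40% ± 1.316 and 7.30% ± 2.49, and theta 4.06% ± 0.813 and 3.13% ± 0.792. Gsta1 and Gstm3 were at the edge of detection in eWAT, with 0 to 16 and 0 to 11 counts per library.

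The first comparison asked whether members differed between IR 4A and WT liver. None of the 10 passed the quasi-likelihood test of edgeR (adjusted p from 0.173 to 0.997 by Benjamini-Hochberg), and 1 of 12421 genes did (0.00805%). Log2 fold changes were above 0 for 9 of 10 members, with a median of 0.43, against 51.0% of all genes and a median of 0.005. At an unadjusted p under 0.05 there were 4 members higher in IR 4A (Gsta1, Gsta2, Gstm1 and Gstm3), where 8.60% of all genes were, and 1 lower (Gstp1), where 9.48% of all genes were. No member had groups that did not overlap, which 3.51% of all genes had.

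Gstp1 had the smallest p of the members. It stood at 1105, 1528, 1085, 1455 and 1727 CPM in WT 1 to 5 and at 1008, 901, 1073, 1085 and 1092 CPM in IR 4A 1 to 5. Of the WT libraries, 4 lay above every IR 4A library and WT 3 fell among the highest of them. The log2 fold change was -0.42 (standard error 0.14, adjusted p = 0.173 by edgeR). DESeq2, which called 3.63% of all genes, gave -0.43 (adjusted p = 0.0476), and the authors' deposited table has -0.43 (adjusted p = 0.0632). Over all alternatives the adjusted p ran from 0.0476 to 0.339. Without WT 1 and WT 3 the log2 fold change was -0.61 (edgeR adjusted p = 0.151). Gstp2, its near copy, had -0.41 (standard error 0.42, adjusted p = 0.635 by edgeR) with means of 17.4 (WT) and 13.1 (IR 4A) CPM.

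**Figure D1:**
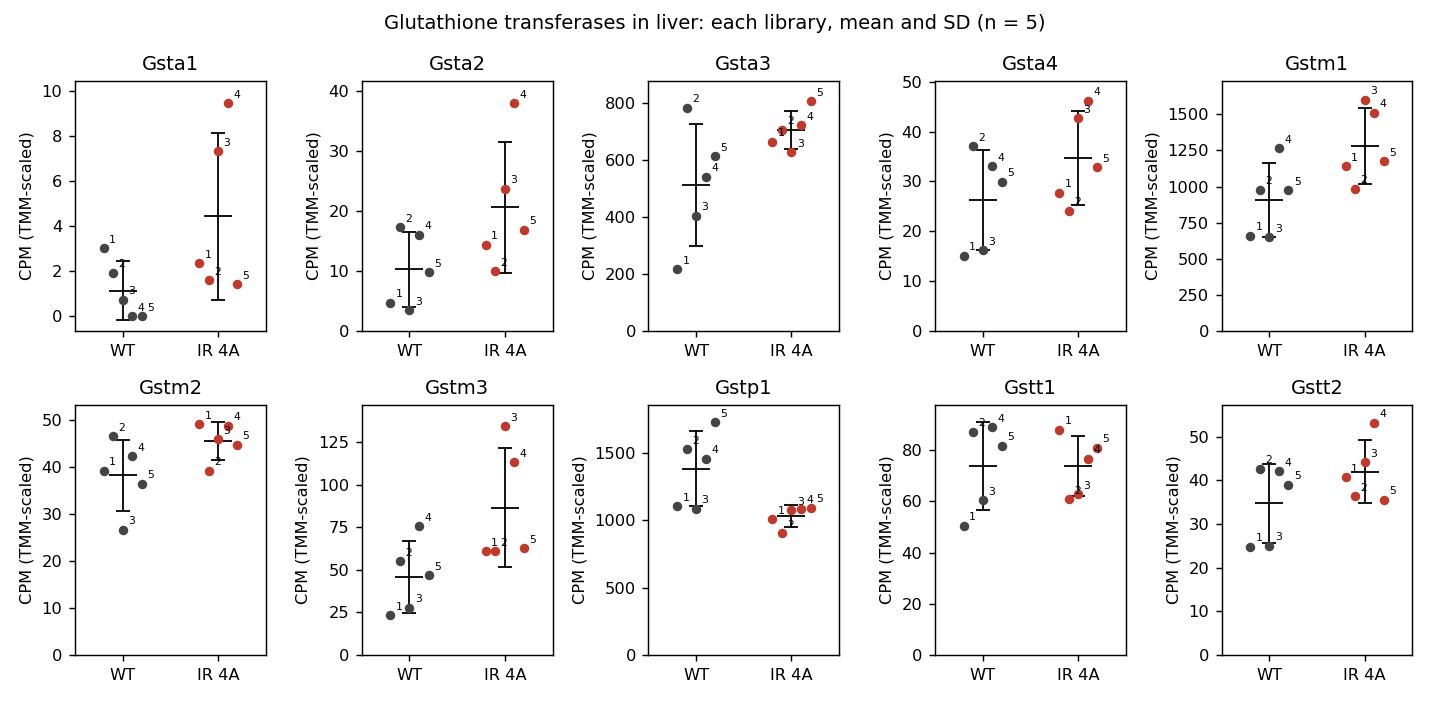
CPM of each member (vertical axes, linear, differing between panels) in the 5 WT and 5 IR 4A liver libraries, numbered by replicate, with the mean and SD. Gstp1 lies lower in IR 4A (901 to 1092 CPM) than in 4 of 5 WT libraries, and WT 1 and WT 3 lie low in most panels.

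Among mu genes, Gstm3 stood at 23.4, 54.9, 27.7, 75.5 and 46.9 CPM in WT 1 to 5 and at 60.9, 60.8, 134, 113 and 62.7 CPM in IR 4A 1 to 5. WT 1 and WT 3 were the lowest, IR 4A 3 and IR 4A 4 the highest, and WT 4 lay above 3 of the IR 4A libraries. The log2 fold change was 0.92 (standard error 0.33, adjusted p = 0.196 by edgeR), and 0.55 without WT 1 and WT 3 (adjusted p = 0.450). Gstm1, the most abundant mu gene in liver, stood at 662, 978, 651, 1266 and 973 CPM in WT and at 1140, 985, 1600, 1511 and 1176 CPM in IR 4A. Here too IR 4A 3 and IR 4A 4 were highest and WT 1 and WT 3 lowest. Its log2 fold change was 0.50 (standard error 0.20, adjusted p = 0.228 by edgeR), and 0.26 without WT 1 and WT 3 (adjusted p = 0.527). Gstm2 had 0.26 (SE 0.13, adjusted p = 0.314), with 26.7 to 46.6 (WT) and 39.3 to 49.1 (IR 4A) CPM, and 0.13 without WT 1 and WT 3.

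Of the alpha genes, Gsta2 stood at 4.77, 17.3, 3.45, 16.045 and 9.86 CPM in WT 1 to 5 and at 14.4, 9.99, 23.7, 37.9 and 16.9 CPM in IR 4A 1 to 5. Its log2 fold change was 1.01 (standard error 0.45, adjusted p = 0.262 by edgeR), 0.52 without WT 1 and WT 3 (adjusted p = 0.567) and 0.66 without IR 4A 4. IR 4A 4 was highest, and WT 2 and WT 4 lay among the IR 4A libraries. Gsta1 had a log2 fold change of 1.97 (standard error 0.85, adjusted p = 0.254 by edgeR) with 0 to 3.03 (WT) and 1.42 to 9.47 (IR 4A) CPM, and 2.78 without WT 1 and WT 3 (adjusted p = 0.325). Gsta3, the abundant alpha gene, stood at 218, 783, 405, 542 and 615 CPM in WT 1 to 5 and at 664, 706, 628, 723 and 806 CPM in IR 4A 1 to 5. WT 1 and WT 3 were the lowest, WT 2 lay among the highest. Its log2 fold change of 0.46 (standard error 0.26, adjusted p = 0.367 by edgeR) was 0.12 without WT 1 and WT 3 (adjusted p = 0.695). Gsta4 had 0.40 (SE 0.26, adjusted p = 0.434), and 0.06 without those libraries.

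The theta genes differed little between the liver groups. Gstt1 stood at 73.8 ± 17.3 (WT) and 73.9 ± 11.7 (IR 4A) CPM (log2 fold change 0.002, 95% interval from -0.32 to 0.32, edgeR adjusted p = 0.997), and -0.22 without WT 1 and WT 3. Gstt2 stood at 34.7 ± 9.06 and 42.0 ± 7.16 CPM (0.28, SE 0.18, adjusted p = 0.423), and 0.03 without them. Leaving out WT 1 and WT 3 thus brought the log2 fold changes of 8 members down (Gsta2, Gsta3, Gsta4, Gstm1, Gstm2, Gstm3, Gstt1 and Gstt2), raised that of Gsta1, and took that of Gstp1 further below 0. None passed there either.

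Many pairs of members varied together between liver libraries of 1 genotype. After subtraction of group means, 40 of 45 pairs had a positive Pearson r of log2 CPM, and 12 pairs passed (permutation of libraries within groups, Benjamini-Hochberg adjustment over 45 pairs). Pairs of other genes were not counted in this way, so these counts cannot be called particular to the members. Gstm1 and Gstm3 had r = 0.97 and rho = 0.99 (permutation p = 0.00057 and 0.00041, adjusted p = 0.0128 and 0.00967), and r = 0.96 without the 2 libraries farthest from the median of Gstm1. Gsta2 and Gsta4 had r = 0.96 and rho = 0.95 (permutation p = 0.0002 and 0.00043, adjusted p = 0.009 and 0.00967), and r = 0.97 without 2 libraries. Without WT 1 and WT 3 these were the pairs that passed, 2 of 45 (r = 0.95 for both, permutation adjusted p = 0.027 for both), while their rank correlations did not pass (permutation adjusted p = 0.14 and 0.054). The median r over pairs within a class was 0.61, and 0.41 without those libraries. Over pairs between classes it was 0.69 and 0.36. Leaving out single libraries gave 2 to 14 pairs. Reads divided between copies enter the values of members that share sequence, as Gstm3 did with Gstm1 (15.2% of its stretches of 31 bases). Gsta4 shared 0 of 1236 such stretches with other genes, Gsta2 among them.

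**Figure D2:**
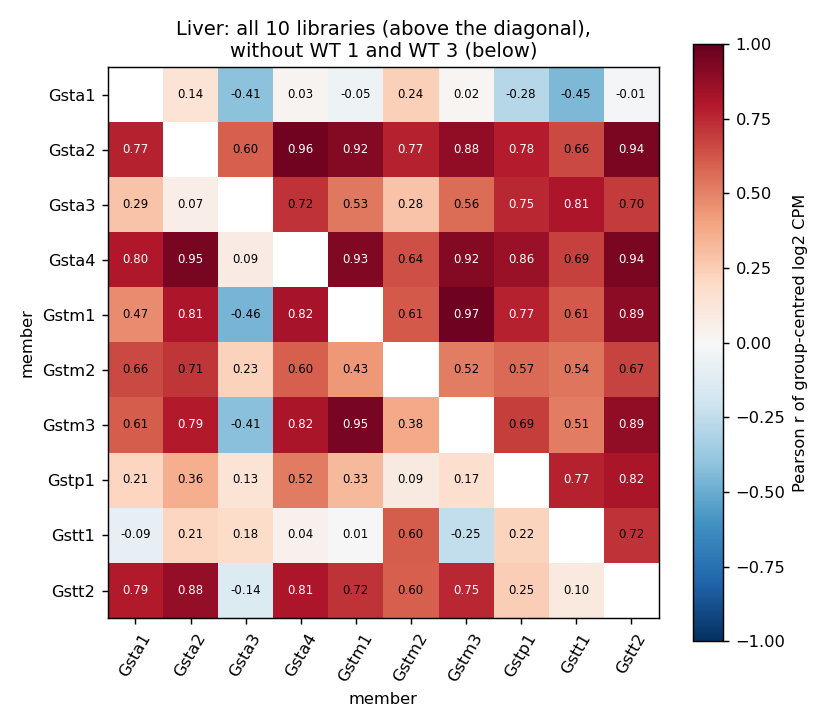
Pearson r of group-centred log2 CPM for each pair of members in liver, over all 10 libraries above the diagonal and without WT 1 and WT 3 below it (colour and printed value, from -1 to 1). Gstm1 with Gstm3 and Gsta2 with Gsta4 stay at 0.95 in the lower triangle, where most pairs are paler.

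Acute phase genes were high in WT 1 and WT 3, where most members were low. Of 18 such genes, 1 had a log2 fold change above 0 in IR 4A against WT liver (median -1.13, none called), led by Apcs (-2.99), Saa3 (-3.15) and Saa2 (-4.59), serum proteins made in inflammation. At an unadjusted p under 0.05 by edgeR, 15 of the 18 were lower in IR 4A, where 9.48% of all genes were. Over all 10 libraries, r with the summed acute phase genes passed for Gsta3, Gsta4, Gstp1 and Gstt1, all inversely (permutation adjusted p from 0.0149 to 0.0462). By rank Gstp1 alone passed there (permutation adjusted p = 0.0243). As those 2 libraries form a separate cluster, r was also computed over the other 8. It was -0.65 for Gsta3 and -0.67 for Gstp1 (permutation p = 0.0654 and 0.0996, adjusted p = 0.498 for both over 10 members; rho = -0.52 for both, permutation p = 0.188 and 0.213, adjusted p = 0.474 for both), and did not pass for any member. Markers of adipose progenitors and fibroblasts, 11 of 11 tested above 0, summed to 225 to 313 CPM in IR 4A liver and 189.7 to 219.5 CPM in WT liver, without overlap. Other markers were also mostly above 0 in liver: 9 of 10 of stellate cells, 9 of 10 of macrophages and 8 of 9 of endothelial cells, none called. Of the hepatocyte markers 3 of 11 were. The part of these lists in the liver values was not tested further.

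In eWAT, 8 members had enough counts to be tested and none passed (edgeR adjusted p from 0.235 to 0.892), as 2 of 16476 genes did (0.0121%). Log2 fold changes were above 0 for 5 of 8, with a median of 0.21, against 40.1% of all genes and a median of -0.08. Gstm2 had an unadjusted p under 0.05 and was higher in IR 4A, as 6.63% of all genes were. None of the 8 had groups that did not overlap, which 5.74% of all genes had.

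Gstm2 had the highest mean per kilobase of the members in both eWAT groups. In WT 4, however, Gstm1 was above it (410 against 331 CPM per kilobase). Gstm2 stood at 453, 388, 436, 352 and 469 CPM in WT 1 to 5 and at 469, 571, 665, 514 and 507 CPM in IR 4A 1 to 5. The groups met only where IR 4A 1 lay just below WT 5. The log2 fold change was 0.38 (standard error 0.12, adjusted p = 0.235 by edgeR). DESeq2, which called 7.31% of all genes, gave 0.39 (adjusted p = 0.0347), and the authors' deposited table has 0.39 (adjusted p = 0.0779). Over all alternatives the adjusted p ran from 0.0347 to 0.596, and without the 4 libraries high in testis markers the log2 fold change was 0.31 (edgeR adjusted p = 0.596).

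**Figure D3:**
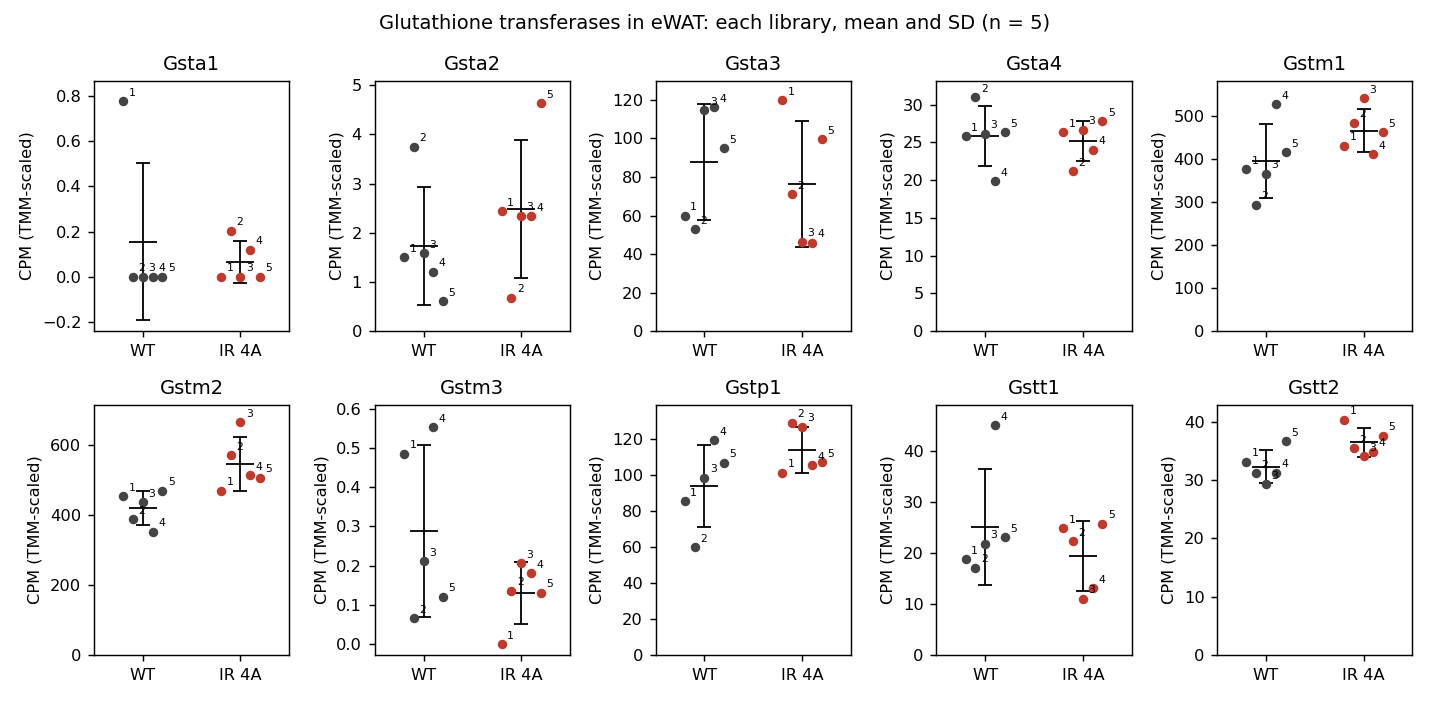
CPM of each member (vertical axes, linear, differing between panels) in the 5 WT and 5 IR 4A eWAT libraries, numbered by replicate, with the mean and SD. Gstm2 runs from 352 to 469 CPM in WT and from 469 to 665 CPM in IR 4A, and Gsta1 and Gstm3 lie below 1 CPM in all 10 libraries.

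Epididymis RNA moved with Gstm2, though without WT 4 only the rank correlation passed. The summed epididymis markers were 30950, 27900, 35950, 5545 and 43940 CPM in WT 1 to 5 and 37240, 51510, 52820, 47710 and 40160 CPM in IR 4A 1 to 5, so WT 4, lowest in Gstm2, was also lowest in these markers and IR 4A 3 was highest in both. After subtraction of group means, r was 0.69 and rho 0.71 (permutation p = 0.00032 and 0.00068, adjusted p = 0.00256 and 0.00544 over 8 members), and r = 0.61 without the 2 libraries farthest from the median of the markers. Without WT 4, r was 0.78 and rho 0.92 (permutation p = 0.013 and 0.00402, adjusted p = 0.052 and 0.0184). No other member passed over all 10 libraries. Gstp1 had r = -0.30 there (permutation p = 0.522, adjusted p = 0.696), and without WT 4 r = 0.85 and rho = 0.88 (permutation p = 0.0105 and 0.00461, adjusted p = 0.052 and 0.0184). Gstm1 had r = -0.55 over all 10, and without WT 4 r = 0.73 and rho = 0.80 (permutation adjusted p = 0.0999 and 0.0697). Gsta2 ran the other way without WT 4 (r = -0.75, permutation adjusted p = 0.0999). Adipocyte markers ran the other way at the extremes: WT 4 had the most, 33200 CPM, and IR 4A 3 the fewest, 3072 CPM. Their range was 9921 to 33200 CPM in WT and 3072 to 16490 CPM in IR 4A, with 0 of 11 log2 fold changes above 0 (median -0.86, none called). Endothelial markers had 0 of 8 above 0 (median -0.98, none called). Progenitor and fibroblast markers summed to 964.3 to 2739 CPM in IR 4A and 3495 to 8513 CPM in WT. Macrophage markers summed to 110.8 to 216.3 CPM in IR 4A against 237.7 to 684 CPM in WT. The part of these cells in the Gstm2 difference was not tested.

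The other eWAT members had larger p-values. Gstm1 stood at 397 ± 86.1 (WT) and 467 ± 50.7 (IR 4A) CPM (log2 fold change 0.24, standard error 0.15, adjusted p = 0.472 by edgeR), and 0.085 without the libraries high in testis markers. Gstp1 stood at 93.9 ± 22.6 and 114 ± 12.9 CPM (0.28, SE 0.17, adjusted p = 0.449), and 0.065 without the same libraries. Gstt2 had 0.18 (SE 0.09, adjusted p = 0.352), Gstt1 -0.37 (SE 0.33, adjusted p = 0.606), Gsta2 0.53 (SE 0.55, adjusted p = 0.669), Gsta3 -0.20 (SE 0.33, adjusted p = 0.778) and Gsta4 -0.03 (SE 0.13, adjusted p = 0.892). Single libraries moved several of these values. Gstt1 had -0.05 without WT 4 and -0.23 without IR 4A 3, Gsta2 had 1.04 without WT 2, 0.32 without WT 5 and 0.18 without IR 4A 5 (1.20 without the libraries high in testis markers), and Gsta3 ran from -0.42 to -0.06. Gstt1 reached 45.1 CPM in WT 4, against 17.1 to 23.1 CPM in the other WT libraries. Of the 28 pairs of tested members none passed in eWAT. The closest were Gstm1 with Gstp1 (r = 0.90, permutation adjusted p = 0.0788) and Gsta3 with Gstt1 (r = 0.84, permutation adjusted p = 0.0788). Leaving out WT 4 gave 5 pairs and leaving out WT 3 gave 1.

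**Figure D4:**
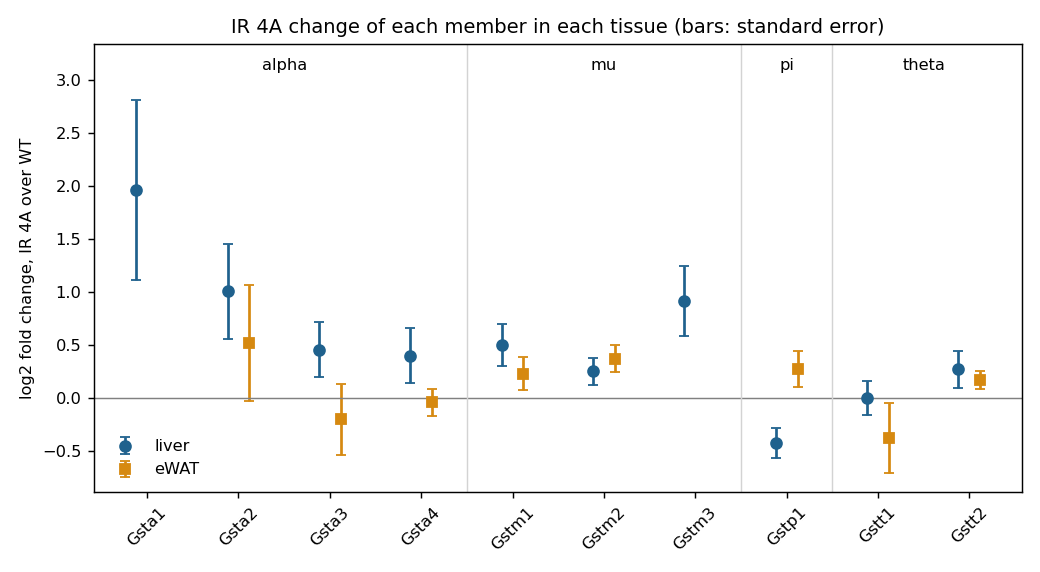
Log2 fold change of IR 4A over WT (vertical axis) for each member by class, in liver (circles) and eWAT (squares), with standard errors from edgeR. Gstp1 lies at -0.42 in liver and 0.28 in eWAT, and Gsta1 and Gstm3 have no eWAT point.

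Whether the IR 4A change differed between tissues was tested as an interaction, given as the eWAT change minus the liver change. No member passed (edgeR adjusted p from 0.122 to 0.786), while 2.41% of 14696 genes did. Gstp1 had 0.68 (SE 0.25, adjusted p = 0.122) and Gstm3 -2.08 (SE 0.91, adjusted p = 0.187), the 2 members with an unadjusted p under 0.05, which 22.1% of all genes had. DESeq2, which called 8.66% of all genes, gave 0.73 for Gstp1 (adjusted p = 0.0353), and limma voom with sample weights, which called 4.27%, gave 0.61 (adjusted p = 0.0457). The adjusted p for Gstp1 ran from 0.0353 to 0.321 over the alternatives. Gstm3 rests on at most 11 counts per eWAT library.

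Levels in WT eWAT were then set against WT liver, on CPM scaled jointly over all 20 libraries. All 10 members passed (edgeR adjusted p from 6.95e-14 to 0.00567), as 77.1% of all genes did. Of these, 9 were higher in liver, as 33.9% of all genes were, and Gstm2 was higher in eWAT, as 43.2% were. Gstp1 stood at 2272 ± 456 CPM in liver and 61.6 ± 14.3 CPM in eWAT (log2 fold change -5.20, standard error 0.21, adjusted p = 6.95e-14 by edgeR), and Gstm3 at 74.95 ± 33.9 and 0.188 ± 0.142 CPM (-8.51, SE 0.48). Gstm2 stood at 62.9 ± 12.1 CPM in liver and 276 ± 35.02 CPM in eWAT (2.13, standard error 0.14, adjusted p = 6.81e-11 by edgeR). Groups did not overlap for 9 members, all but Gsta1, as for 60.5% of all genes. Gsta1 held 0 counts in 2 of 5 WT liver and 4 of 5 WT eWAT libraries. The eWAT levels, that of Gstm2 among them, come from libraries that also carried epididymis RNA, and its part was not tested.

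This comparison depends on scaling. The median log2 fold change of all genes was 0.19 with TMM and 1.69 when libraries were scaled by their totals alone. Under library totals Gsta4 moved from -1.34 to 0.16 (edgeR adjusted p = 0.537) and Gstt2 from -1.43 to 0.07 (adjusted p = 0.657), so the direction of both reversed, and Gsta1 moved to -2.51 (adjusted p = 0.0583). The other 7 members passed under both scalings in the same direction: Gsta2, Gsta3, Gstm1, Gstm3, Gstp1 and Gstt1 higher in liver, and Gstm2 higher in eWAT (3.64 under library totals).

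**Figure D5:**
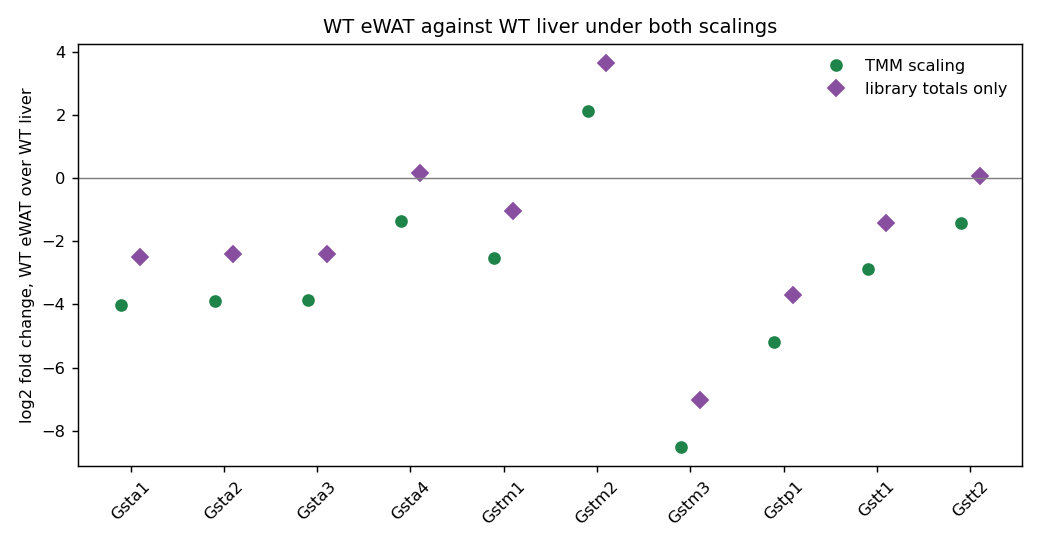
Log2 fold change of WT eWAT over WT liver (vertical axis) for each member, with TMM scaling (circles) and with library totals alone (diamonds). Gsta4 and Gstt2 cross 0 between scalings, and Gstm2 is above 0 under both.

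Further glutathione transferases were read from a list of other family members. Of 10 other cytosolic genes tested in liver, 9 had a log2 fold change above 0 (median 0.24) and none was called, with Gstm4 (0.34), Gstm5 (0.25) and Gstm6 (0.32) at the smallest p (edgeR adjusted p = 0.297, 0.386 and 0.392). In eWAT 5 of 11 were above 0 (median -0.19), none called, led by Gstt3 (0.58), Gstm6 (0.47) and Gstm7 (0.47, edgeR adjusted p = 0.249, 0.268 and 0.279). These lists, too, were drawn up with earlier results of the data known. Of the mitochondrial and membrane enzymes, 2 of 3 were above 0 in liver and 2 of 6 in eWAT, none called.

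Genes that supply, use or regulate glutathione gave no call in either tissue. In liver, 5 of 16 genes of glutathione synthesis and turnover had a log2 fold change above 0 (median -0.06), as had 9 of 11 glutathione peroxidases and glutaredoxins (median 0.17) and 8 of 14 genes of conjugate export (median 0.14). Of the NRF2 pathway regulators, 6 of 9 were above 0 (median 0.26), with Bach1, a repressor at antioxidant response elements, at 0.49 (standard error 0.11, adjusted p = 0.113 by edgeR), Mafk at 0.44 (adjusted p = 0.122) and Nfe2l2, which encodes NRF2, at 0.30 (adjusted p = 0.269). Of 18 other NRF2 targets, 10 were above 0 (median 0.02). In eWAT 12 of 18 genes of glutathione synthesis were above 0 (median 0.25), with Cth at 0.53 and Gclm, the modifier subunit of the rate-limiting ligase, at 0.30 (edgeR adjusted p = 0.226 and 0.233), and Dpep1 at -1.25 (adjusted p = 0.22). The NRF2 regulators had 4 of 9 above 0 there (median -0.25).

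Some of these genes did pass in the interaction test, in which 2.41% of all genes passed (0 with the replicate block), each with a lower log2 fold change in eWAT than in liver. They were 2 of 9 NRF2 regulators, Bach1 (-0.76, edgeR adjusted p = 0.0369) and Mafk (-0.72, adjusted p = 0.0433), 2 of 18 targets of CAR, PXR and AHR, Cyp1b1 (-1.51) and Tiparp (-0.79), 1 of 18 genes of glutathione synthesis and turnover, Dpep1 (-3.01), and 1 of 11 peroxidases and glutaredoxins, Gpx8 (-1.61). Of 20 other NRF2 targets, Ces1g passed (-4.27). In the fit of eWAT alone 19 of these 20 were tested, with log2 fold changes from -1.15 to 0.46. In the fit of liver alone 18 of the 20 were tested, from -0.21 to 0.60. The value of -4.27 is outside what these ranges allow, so Ces1g had too few counts for a fit within a tissue. Dpep1, Gpx8 and Cyp1b1 were scarce in liver, with IR 4A means of 0.852, 0.818 and 0.902 CPM. Of the growth hormone genes, 1 of 11 passed. Markers of other cells moved with them in the same test, with 5 of 12 fibroblast, 3 of 10 macrophage, 3 of 10 stellate and 2 of 10 mesothelial markers lower, and their part was not tested. Without the 4 eWAT libraries high in testis markers, 23 genes passed in place of 354.

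Regulators outside the NRF2 pathway were read the same way in liver, with none called. Xenobiotic receptors had 3 of 7 log2 fold changes above 0 (median -0.04). Targets of CAR, PXR and AHR had 11 of 17 above 0 (median 0.31), led by Tiparp (0.57, edgeR adjusted p = 0.115). Growth hormone signalling genes had 7 of 10 above 0 (median 0.11), led by Cish, a STAT5 target, with means of 6.02 (WT) and 23.1 (IR 4A) CPM (1.95, standard error 0.44, adjusted p = 0.113 by edgeR). Genes higher in male liver had 2 of 15 above 0 (median -0.16), led by Elovl3 (-0.998, edgeR adjusted p = 0.108). Of 14 genes higher in female liver, 2 had enough counts: Cyp2c40 stood lower in IR 4A (means of 10.5 and 2.00 CPM in WT and IR 4A, log2 fold change -2.39, edgeR adjusted p = 0.0622) and Fmo2 higher (9.99 and 23.7 CPM, 1.25, adjusted p = 0.0727), both without overlap of the groups.

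Genes whose log2 CPM ran most like a member's over the 10 libraries of a tissue are given as a description, for the member with the smallest p in each direction. For Gstm3 in liver they were Tasor (r = 0.961), Glrx3 (0.958), Mug2 (0.952), Srd5a1 (0.947) and Cds2 (0.940), of 11117 genes compared. For Gstp1 in liver they were Ints14 (0.920), Jagn1 (0.909), Ndufa3 (0.907), Cox6a1 (0.906) and Rpl8 (0.897). For Gstm2 in eWAT they were Rpl28-ps1 (0.988), Rps23-ps1 (0.981), Rpl41 (0.970), Rps27rt (0.968) and Got2 (0.967), of 14909. For Gstt1 in eWAT they were Klf13 (0.995), Chst1 (0.991), Reep5 (0.990), Acadvl (0.989) and Prxl2a (0.988). Libraries of both genotypes enter these values, and they share depth and tissue composition.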

How the data were processed

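The deposited tables hold estimated counts per gene, rounded by the authors to whole numbers; the processing notes of the submitters name Salmon 1.8.0, GRCm39 and DESeq2 1.32.0. The authors' deposited comparison tables give log2 fold changes and p-values, which are named as such where printed. Repeated identifiers were dropped (83 in liver, 208 in eWAT). The edgeR 4.0.16 quasi-likelihood test (R 4.3.3; TMM; filterByExpr with a minimum count of 10 and a minimum total of 15; two-sided; Benjamini-Hochberg adjustment over all genes, threshold 0.05) was fitted per tissue, on 12421 and 16476 genes, and over all 20 libraries for the interaction and for WT eWAT against WT liver (14696 genes). The scripts were tested on simulated data. No pair of libraries within a group was a duplicate (lowest chi-square over its degrees of freedom 12.5), and pairs between groups were not checked. The coefficient of variation among libraries, estimated by edgeR in common for all genes, was 0.187 (liver) and 0.512 (eWAT).

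Members and lists were chosen with earlier results of these data known. All 10 members are named. Of each list at most 3 genes with the smallest unadjusted p are named, and for the member with the smallest p in each direction the 5 most similar genes of at least 1 CPM. Correlations used log2 (CPM + 0.5) and 100000 permutations within groups. Lengths and stretches of 31 bases came from GENCODE M21 transcripts (GRCm38), a build other than the authors', promoters from RefSeq, and alignments from Biopython 1.88. Alternatives were RLE scaling, no filter, a filter of 1 CPM in 5 libraries, DESeq2 1.42.0, limma 3.58.1 voom, a robust prior, the replicate number as a block, all 20 libraries in 1 fit, and libraries left out. Scaling by library totals, the omission of 4 eWAT libraries and the relation to marker sums were chosen after seeing the data. The omissions of libraries in the correlations of member pairs, WT 1 and WT 3 of liver among them, were likewise not planned.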

Additional observations from a re-analysis of the deposited data

Results flagged for a closer look

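Of 40 groups of 5 libraries checked, 2 had a library whose gap to the nearest other exceeded 0.71 of the group's range, and chance flags about 1 in 20 groups. Gstt1 stood at 45.1 CPM in eWAT WT 4, against 17.1 to 23.1 CPM in the other 4 WT libraries. The same library had the fewest epididymis markers of the eWAT libraries, 5545 CPM. Gsta1 stood at 0.776 CPM (16 counts) in eWAT WT 1 and at 0 in the other 4 WT libraries.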

How the results depend on the processing

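No member passed in liver or eWAT under any alternative but DESeq2, which called 451 genes in liver (203 higher, 248 lower; 1 member, Gstp1) and 1204 in eWAT (523 higher, 681 lower; 1 member, Gstm2). The cause was not tested. The number of all genes called, 1 in liver and 2 in eWAT, was far less stable: in liver 4 with voom, 49 in a fit of all 20 libraries, 0 without WT 1 and WT 3 and 0 to 143 with single libraries left out (143 without IR 4A 1), and in eWAT 0 without a filter, 1 with the stricter filter, 78 with voom, 295 in a fit of all 20 libraries, 0 without the 4 libraries high in testis markers and 0 to 6 with single libraries left out. For the interaction, 354 genes (108 higher, 246 lower) became 1273 with DESeq2 (1 member, Gstp1), 628 with voom (1 member, Gstp1), 731 with library totals, 96 without liver WT 1 and WT 3, 23 without the 4 eWAT libraries and 70 to 729 with single libraries left out, and RLE split its calls 161 higher and 180 lower. The replicate block gave 3 genes in liver, 0 in eWAT and 0 for the interaction, with no member called. For same-numbered WT and IR 4A libraries, group-centred values had r from -0.07 to 0.08 in liver and from -0.70 to 0.41 in eWAT. Between same-numbered liver and eWAT libraries r ran from -0.085 to 0.025 in WT and from -0.125 to 0.064 in IR 4A. Libraries of 1 animal need not deviate together, so these values cannot decide whether the numbers mark pairs. Reversed directions, all far from the threshold, were those of liver Gstt1 (RLE -0.0029, no filter -0.011, DESeq2 -0.0030, voom -0.025, without WT 1 and WT 3 -0.22, single libraries -0.11 to 0.078), eWAT Gsta4 (0.070 without the 4 libraries, -0.11 to 0.068 with single libraries left out), and, for the interaction, Gstm2 (voom -0.064), Gstt2 (0.12 without liver WT 1 and WT 3), Gsta1 (0.84 without the 4 eWAT libraries, -4.02 to 0.88 with single libraries left out) and Gsta2 (0.17 without the 4). For WT eWAT against WT liver, library totals gave 7 members, with Gsta4 at 0.16 and Gstt2 at 0.072, and Gsta1 missed the threshold with voom (-3.70, limma adjusted p = 0.103). Liver pairs of members that passed were 12, 2 without WT 1 and WT 3 and 2 to 14 with single libraries left out, and eWAT pairs 0 to 5. By CPM in place of CPM per kilobase, 6 of 10 members kept their rank in WT liver.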
